A study of Arabidopsis thaliana with 18 samples.

Results

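Transcript levels of 9 genes that build and delimit the shoot apical meristem were followed in Arabidopsis explants undergoing somatic embryogenesis (SE). The 9 genes were chosen by locus code as the best-known members of 3 groups, with earlier results of these data known, so counts over them are descriptive. All 9 were found among the 34218 genes listed and were among the 23539 that passed the filter on low counts. They are the class I KNOX genes STM (AT1G62360), KNAT1 (AT4G08150), KNAT2 (AT1G70510) and KNAT6 (AT1G23380), the organ boundary genes CUC1 (AT3G15170), CUC2 (AT5G53950) and CUC3 (AT1G76420), and the CLAVATA genes CLV1 (AT1G75820) and CLV3 (AT2G27250). RNA was sequenced from immature zygotic embryos of wild-type Arabidopsis thaliana (Col-0) that had been placed in culture at the cotyledonary stage. E0 is the basal medium without an inducer, on which explants are described as growing into seedlings. ET is E0 with 1 µM trichostatin A (TSA), which blocks histone deacetylases, and EA is E0 with 5 µM of the synthetic auxin 2,4-D, and both are described as embryogenic. Explants were collected whole at 5 d or 10 d, from 250 pooled explants per replicate at 5 d to 100 at 10 d, with 3 biological replicates (a, b and c) in each of the 6 groups.

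A shoot meristem keeps undifferentiated cells at the tip of the plant. Class I KNOX proteins are homeodomain transcription factors that hold these cells in an undifferentiated state, largely by raising cytokinin and lowering gibberellin, and they act with BELL-class homeodomain partners. CUC proteins are NAC transcription factors that mark the boundary between cotyledons or other organs, and in embryos CUC1 and CUC2 together are needed for STM to be switched on. CLV3 is a small peptide secreted by stem cells that is perceived by the receptor kinase CLV1 and its relatives, and this signal limits WUS, the homeodomain factor made below the stem cells. The microRNA miR164 cleaves transcripts of CUC1 and CUC2 but not of CUC3.

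Because the miR164 site distinguishes the CUC genes, the sequences are shown first, from the RefSeq annotation of the TAIR10.1 assembly. The mature miR164a and miR164b-5p have the same sequence, and miR164c-5p differs from them at the last base. Capitals mark the seed, bases 2 to 8.
miR164a: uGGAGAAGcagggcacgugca
miR164c-5p: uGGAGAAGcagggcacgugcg
Among the members the closest matches to miR164a lie in the coding sequence of CUC1 (chr3:5111137-5111157, plus strand) and of CUC2 (chr5:21902301-21902321, minus strand). Capitals mark bases that pair with miR164a by G-C or A-U, and lower case marks mismatches.
CUC1 site: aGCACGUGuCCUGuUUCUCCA
CUC2 site: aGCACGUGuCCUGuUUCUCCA
Both sites are identical and differ from the perfect complement of miR164a at 3 positions, counted from 1 at the 5′ end of the site (U1A, C9U and C14U). C14U faces base 8 of miR164a, the last of the seed, and there and at C9U a G-U pair is possible. Of 31464 genes scanned on the sense strand of their exons, 6 (0.0191%) held a site with at most 3 mismatches. In CUC3 the best match had 9 mismatches and in the other members 7 to 9.

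In the TAIR10.1 annotation the 9 genes lie on all 5 chromosomes. STM is annotated at chr1:23058582-23062063 (minus strand), KNAT1 at chr4:5147699-5151159 (minus), KNAT2 at chr1:26576486-26582879 (plus) and KNAT6 at chr1:8297241-8302651 (minus). CUC1 lies at chr3:5109782-5111608 (plus), CUC2 at chr5:21901704-21903854 (minus) and CUC3 at chr1:28671806-28674045 (minus). CLV1 lies at chr1:28463344-28466971 (minus) and CLV3 at chr2:11664978-11665797 (minus). None of them overlaps another annotated gene, and 0% of their exonic stretches of 76 bases, the read length, occur a second time in the genome, so that counts of these genes were not shared with copies or antisense genes.

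Libraries held 9098758 to 58364735 counts of uniquely aligned reads, and levels are given as CPM, the count of a gene relative to the library size scaled by edgeR's TMM method. A count of 3, taken as the detection floor, corresponds to 0.0487 to 0.329 CPM. Replicates differed by more than counting error in every group. Replicate c of ET at 5 d and replicate c of EA at 10 d stood apart. They had 3.37% and 4.09% of counts on identifiers without an AT locus code (structural RNA or other), against 0.0706% to 0.645% in the other 16 libraries. Marker genes of other tissues also differed between media. Summed over 5 root hair genes, E0 libraries held 48.4 to 140 CPM and ET and EA libraries 4.63 to 16.2 CPM. Summed over 8 seed maturation genes, levels were 77900 to 171000 CPM on E0, 74500 to 116000 CPM on ET at 10 d and 19300 to 37300 CPM in the remaining groups, so that storage protein transcripts were abundant in explants described as growing into seedlings. Summed over 7 genes of green tissue, E0 held 1820 to 3270 CPM, ET 3200 to 10400 CPM and EA 1380 to 2480 CPM. These sums follow the most abundant genes. All 5 root hair genes were called lower than on E0 on both media at both times, where 20% to 25% of all genes were. Of the 7 green genes, 5 were called higher and 0 lower on ET at 5 d. On EA at 10 d, 0 were called higher and 4 lower, where 24.2% and 25% of all genes were. In the other comparisons with E0, single green and seed maturation genes went both ways. On ET against E0, 2 green genes were called higher and 2 lower at 10 d, where 18% and 20% of all genes were. At 5 d, 2 seed maturation genes were called higher and 5 lower, where 23.8% and 21.5% of all genes were. Of 5 endosperm markers, IPT8 was at 0 and the sum did not exceed 2.06 CPM, and 4 seed coat markers summed to at most 9.19 CPM, in EA at 10 d. The part of these differences in the results was not tested, and in whole explants fewer cells of a type and less RNA per cell cannot be told apart.

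STM, the factor without which embryos form no shoot meristem, was low on E0 and rose late on both embryogenic media. On E0 it stood at 4.33, 2.73 and 4.28 CPM at 5 d (replicates a, b and c) and at 3.25, 2.68 and 2.09 CPM at 10 d. ET libraries held 3.11, 2.37 and 7.24 CPM at 5 d and 18.1, 14.2 and 21.9 CPM at 10 d, and EA libraries 7.21, 6.41 and 7.15 CPM at 5 d and 10.7, 16.0 and 26.9 CPM at 10 d. Every ET and EA library at 10 d lay above every E0 library, and ET at 5 d overlapped E0, with replicate c above every E0 library. Adjusted p-values come from the quasi-likelihood test of edgeR, corrected over the 23539 genes by the method of Benjamini and Hochberg, here and throughout. STM was 6.79-fold higher on ET than on E0 at 10 d (log2 fold change 2.76, SE 0.39, adjusted p = 4.13e-05) and 6.71-fold higher on EA (2.75, SE 0.39, adjusted p = 2.37e-05). At 5 d the values were 0.19 (SE 0.39, adjusted p = 0.712) on ET and 0.86 (SE 0.38, adjusted p = 0.0853) on EA, with no overlap between EA and E0. The EA value at 5 d was called with library totals (1.07, adjusted p = 0.0208) and in a fit of the E0 and EA libraries of that day alone (0.85, adjusted p = 0.00893). Without ET replicate c of 5 d, the ET value was -0.44 and STM was lower on ET than on EA at that time (-1.30, adjusted p = 0.0115), a difference that was not called with it (-0.67, adjusted p = 0.172).

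KNAT1, also known as BREVIPEDICELLUS and active in stems and the meristem, was the most abundant member per kb of exon on E0 at 5 d and varied widely between replicates. On E0 it stood at 50.5, 42.1 and 49.3 CPM at 5 d and at 39.0, 14.3 and 14.2 CPM at 10 d. ET libraries held 65.6, 64.6 and 27.3 CPM at 5 d and 59.5, 60.6 and 67.6 CPM at 10 d, and EA libraries 49.3, 50.9 and 32.5 CPM at 5 d and 52.1, 25.3 and 12.3 CPM at 10 d. The 3 ET libraries at 10 d were alike, while on E0 and on EA replicate a stood above b and c at that time. KNAT1 was called higher on ET than on E0 at 10 d (1.47, SE 0.46, adjusted p = 0.0192), but this call was lost without E0 replicate b (1.24, adjusted p = 0.0806), without E0 replicate c (1.22, adjusted p = 0.0867) and without ET replicate c (1.33, adjusted p = 0.0606), and without E0 replicate a the value was 2.14 (adjusted p = 0.00303). On EA at 10 d it was 0.41 (SE 0.46, adjusted p = 0.476), and no difference was called at 5 d.

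KNAT2, a class I KNOX gene of the meristem base and the carpels, separated both embryogenic media. It stood at 3.80, 6.27 and 5.48 CPM on E0 at 5 d and at 2.25, 3.14 and 1.71 CPM at 10 d. On ET it reached 6.01, 6.67 and 4.20 CPM at 5 d and 10.5, 7.14 and 7.33 CPM at 10 d, and on EA 1.54, 1.64 and 1.95 CPM at 5 d and 2.08, 2.61 and 1.66 CPM at 10 d. ET lay above EA in every library at both times. The gene was 3.26-fold higher on ET than on EA at 5 d (1.70, SE 0.29, adjusted p = 0.000276) and 3.90-fold higher at 10 d (1.96, SE 0.29, adjusted p = 8.28e-05). Against E0 it fell by 1.58 on the log2 scale on EA at 5 d (SE 0.30, adjusted p = 0.000405) and rose on ET at 10 d (1.83, SE 0.29, adjusted p = 0.000123). EA at 10 d and ET at 5 d overlapped E0.

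KNAT6, which acts in the meristem and at its boundary and is the closest relative of KNAT2, was the one member called higher in all 4 comparisons with E0. E0 libraries held 21.8, 20.4 and 26.1 CPM at 5 d and 19.9, 17.0 and 17.6 CPM at 10 d. It stood at 47.4, 39.5 and 34.6 CPM on ET and 43.6, 41.6 and 36.2 CPM on EA at 5 d, and at 47.6, 50.7 and 53.4 CPM on ET and 81.6, 44.9 and 44.2 CPM on EA at 10 d. No ET or EA library overlapped E0. Its log2 fold change was 0.83 at 5 d on ET (SE 0.21, adjusted p = 0.0035) and on EA (SE 0.21, adjusted p = 0.00394), and 1.48 on ET (SE 0.21, adjusted p = 3.8e-05) and 1.65 on EA (SE 0.21, adjusted p = 7.28e-06) at 10 d. The difference between ET and EA was 0.00 (SE 0.20) at 5 d and -0.17 (SE 0.20) at 10 d, neither of them called.

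**Figure D1:**
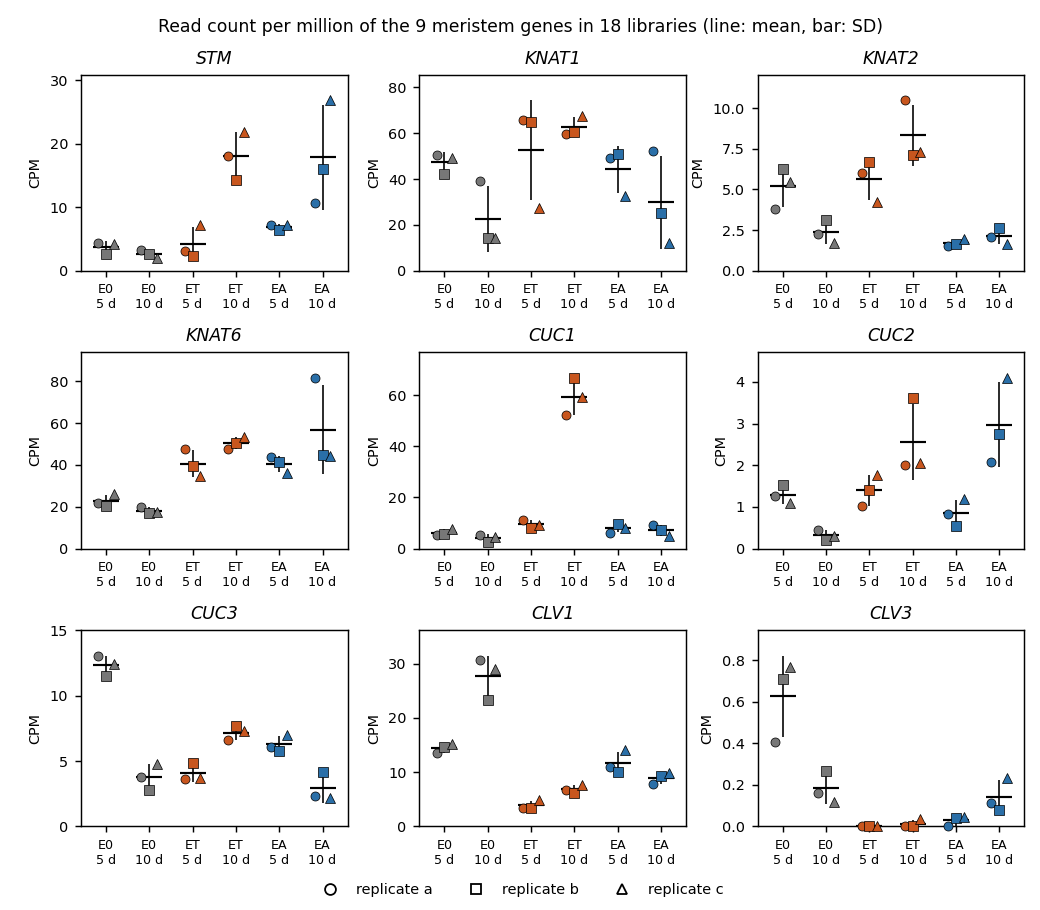
Levels of the 9 genes in CPM (y axes, linear from 0, a scale for each gene) by medium and day, with each library as a point (circle a, square b, triangle c), the group mean as a line and the SD as a bar. CUC1 stands far above the other groups on ET at 10 d, at 52.2 to 66.7 CPM, while CLV1 and CLV3 are highest on E0.

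CUC1 had the largest rise of all members, on ET at 10 d. On E0 it stood at 5.13, 5.66 and 7.68 CPM at 5 d and at 5.42, 2.41 and 4.46 CPM at 10 d. EA libraries held 6.28, 9.61 and 8.13 CPM at 5 d and 9.42, 7.24 and 5.08 CPM at 10 d. ET libraries held 11.3, 8.17 and 9.08 CPM at 5 d and 52.2, 66.7 and 59.3 CPM at 10 d. At 5 d the value against E0 was 0.65 on ET (SE 0.28, adjusted p = 0.0696), without overlap, and was called only without E0 replicate c. On EA at 5 d it was 0.40 (SE 0.28, adjusted p = 0.279). At 10 d ET was 14.2-fold above E0 (3.83, SE 0.30, adjusted p = 1.67e-07) and 8.19-fold above EA (3.03, SE 0.29, adjusted p = 1.02e-06). The EA value at 10 d, 0.80 (SE 0.27, adjusted p = 0.0238), was called although the libraries of both groups overlapped, and the call was lost without E0 replicate b (0.56, adjusted p = 0.1) or EA replicate a (0.56, adjusted p = 0.119).

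CUC2, which carries the same miR164 site, was higher on both media than on E0 at 10 d. It was the least abundant CUC gene on E0, at 1.26, 1.52 and 1.10 CPM at 5 d and 0.456, 0.201 and 0.305 CPM at 10 d. ET libraries held 1.03, 1.40 and 1.76 CPM at 5 d and 2.01, 3.62 and 2.06 CPM at 10 d, and EA libraries 0.833, 0.540 and 1.19 CPM at 5 d and 2.08, 2.75 and 4.09 CPM at 10 d. All 6 embryogenic libraries of 10 d lay above all 6 E0 libraries, and at 5 d the media overlapped. At 10 d the gene was 7.61-fold higher than on E0 on ET (2.93, SE 0.43, adjusted p = 5.1e-05) and 8.79-fold higher on EA (3.14, SE 0.42, adjusted p = 1.39e-05). The E0 libraries of 10 d held 17, 3 and 18 counts, with replicate b at the floor of 3. From 5 d to 10 d CUC2 fell on E0 (by 1.94, adjusted p = 0.00572) and rose on EA (1.80, adjusted p = 0.00515), while its change on ET was not called (0.88, adjusted p = 0.117). Between ET and EA at 10 d the difference was -0.21 (SE 0.37, adjusted p = 0.697), against 3.03 for CUC1.

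CUC3, the boundary gene without a miR164 site, was the most abundant CUC gene on E0 at 5 d and took another course. It stood at 13.0, 11.5 and 12.4 CPM on E0 at 5 d and at 3.78, 2.81 and 4.75 CPM at 10 d. On ET it reached 3.62, 4.84 and 3.71 CPM at 5 d and 6.57, 7.67 and 7.28 CPM at 10 d, and on EA 6.06, 5.79 and 7.01 CPM at 5 d and 2.36, 4.15 and 2.20 CPM at 10 d. It was lower than on E0 at 5 d on ET (-1.62, SE 0.25, adjusted p = 7.26e-05) and on EA (-0.97, SE 0.24, adjusted p = 0.00442). At 10 d it was higher on ET (0.91, SE 0.25, adjusted p = 0.00781) and stood at -0.40 on EA (SE 0.25, adjusted p = 0.192), where it was called lower only without EA replicate b (-0.74, adjusted p = 0.0154). The sign of the ET value against E0 thus turned between 5 d and 10 d, while E0 itself fell over that time.

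CLV1, the receptor kinase that perceives CLV3, was lower on the embryogenic media. E0 libraries held 13.5, 14.7 and 15.1 CPM at 5 d and 30.7, 23.4 and 29.0 CPM at 10 d. It stood at 3.45, 3.44 and 4.85 CPM on ET and 11.0, 9.94 and 14.1 CPM on EA at 5 d, and at 6.75, 6.13 and 7.60 CPM on ET and 7.73, 9.24 and 9.85 CPM on EA at 10 d. Both media lay below E0 in every library at 10 d, and at 5 d this held for ET, while EA overlapped E0. The gene fell by 1.86 on the log2 scale on ET at 5 d (SE 0.19, adjusted p = 1.47e-06), by 2.02 on ET at 10 d (SE 0.19, adjusted p = 8.99e-07) and by 1.63 on EA at 10 d (SE 0.18, adjusted p = 2.35e-06). On EA at 5 d the value was -0.30 (SE 0.18, adjusted p = 0.206), and ET was lower than EA at that time (-1.56, SE 0.19, adjusted p = 1.14e-05).

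CLV3, the stem cell peptide, was scarce, with at most 17 counts in a library, and was highest on E0 at 5 d, where the pooled level of 0.507 CPM stood above the floor of 0.0491 CPM. On E0 it stood at 0.404, 0.708 and 0.768 CPM at 5 d and at 0.161, 0.268 and 0.119 CPM at 10 d. EA libraries held 0, 0.0415 and 0.0448 CPM at 5 d and 0.114, 0.0791 and 0.234 CPM at 10 d. On ET all 3 libraries of 5 d and 2 of 10 d had a count of 0, and ET replicate c of 10 d stood at 0.0356 CPM. Pooled over the libraries of a group, E0 at 5 d gave 31 counts against 0 on ET. Set against a floor of 3 counts over the group (0.0341 CPM), E0 was at least 14.9-fold higher, and with the counting error of both groups included the exact 95% interval of the ratio began at 11.4. EA at 5 d gave 4 counts, and E0 was 15.7-fold higher (95% interval of the counts 5.56 to 61.4). Both differences were called (adjusted p = 0.000157 and 0.000616). At 10 d, 17 counts on E0 compared with 2 on ET, a ratio of 6.87 (1.63 to 61.3, adjusted p = 0.0275), and with 21 on EA (ratio 1.13, 0.559 to 2.24, adjusted p = 0.775). The call on ET at 10 d was lost without E0 replicate a or b or ET replicate a or b (adjusted p = 0.0536 to 0.0867). Both ET counts were in replicate c, and without it the call was kept (adjusted p = 0.0318) with the fitted log2 value at -5.57 in place of -2.81, which depends on the prior count and is no bound. These intervals cover counting error only.

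Counted over the 9 members, 1 was called higher and 3 lower on ET than on E0 at 5 d (KNAT6 against CUC3, CLV1 and CLV3). Among all genes tested, 23.8% were called higher and 21.5% lower in that comparison. At 10 d on ET, 7 were called higher and 2 lower, that is all 4 KNOX genes and all 3 CUC genes against both CLAVATA genes, where 18% of all genes were called higher and 20% lower. On EA at 5 d, 1 was higher (KNAT6) and 3 were lower (KNAT2, CUC3 and CLV3), against 19% and 20.8% of all genes. Of all genes called in that comparison 47.6% were higher, and 61.5% with library totals in place of TMM. At 10 d on EA, 4 were higher (STM, KNAT6, CUC1 and CUC2) and CLV1 was lower, against 24.2% and 25% of all genes. The median log2 fold change of the 9 genes at 10 d was 1.48 on ET and 0.41 on EA, beside 0.01 and 0.09 for all genes. Both media are compared with the same E0 libraries, so the ET and EA values are not independent of each other.

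**Figure D2:**
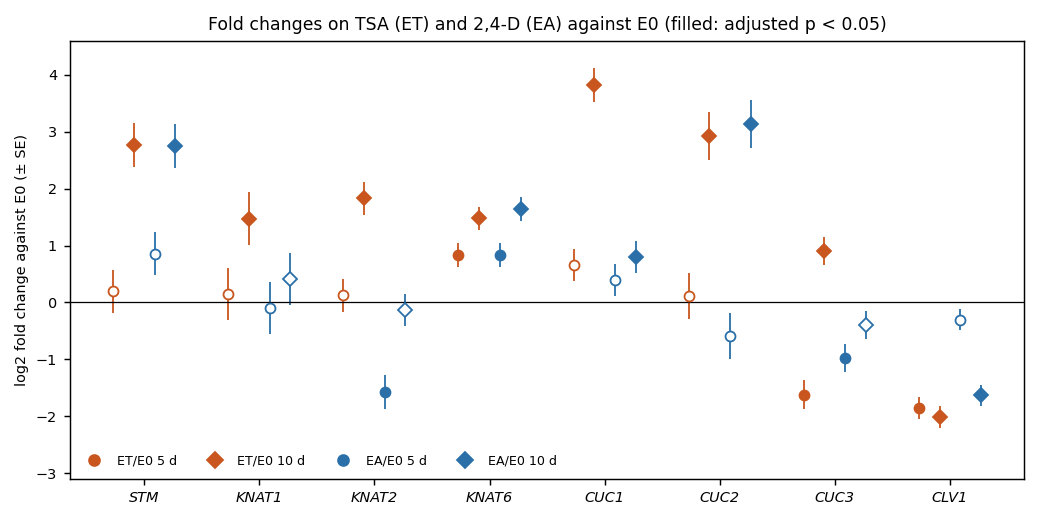
Log2 fold changes against E0 with their standard errors (y axis) for 8 of the genes (x axis), ET in orange and EA in blue, circles for 5 d and diamonds for 10 d, filled where the adjusted p was under 0.05. STM, KNAT6 and CUC2 reach similar values on ET and EA at 10 d, while CUC1 stands at 3.83 on ET and 0.80 on EA. CLV3 is left out because its fitted values rest on counts near 0.

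Compared directly, ET and EA differed in 2 of the 9 members at 5 d and in 4 at 10 d. Of all genes called, 55% were higher on ET at both times, and 35.9% at 5 d and 38.2% at 10 d with library totals, so that directions here depend on the scaling. At 5 d KNAT2 was higher and CLV1 lower on ET, 1 gene each way, against 20.1% and 16.4% of all genes. CUC3 stood at the threshold (-0.65, SE 0.25, adjusted p = 0.0501) without overlap between the groups, and was called lower with DESeq2's size factors (-0.67, adjusted p = 0.0433) or with DESeq2's Wald test (-0.69, adjusted p = 0.0214). At 10 d KNAT2, CUC1 and CUC3 (1.31, SE 0.25, adjusted p = 0.000762) were higher on ET and CLV3 was lower, 3 and 1 against 17.6% and 14.4% of all genes. The CLV3 value rests on 2 counts against 21 (ratio of EA to ET 6.09, 1.49 to 53.6, adjusted p = 0.0453), and the call was lost without ET replicate a or b or EA replicate a or c (adjusted p = 0.0545 to 0.139). Without ET replicate c it was kept (adjusted p = 0.0497), with the fitted value at -5.26 in place of -2.56. KNAT1 at 10 d stood at 1.06 (SE 0.46, adjusted p = 0.087) and was called without EA replicate a (1.73, adjusted p = 0.0103). For STM at 10 d the difference was 0.02 (SE 0.36).

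The course from 5 d to 10 d depended on the medium. On E0, CLV1 rose (0.95, SE 0.18, adjusted p = 0.00218) and KNAT2, CUC2 and CUC3 fell (by 1.14, 1.94 and 1.69, adjusted p = 0.0134, 0.00572 and 0.000283), 1 and 3 members against 10.4% and 7.1% of all genes. The KNAT2 call was lost without E0 replicate b of 5 d (-0.97, adjusted p = 0.0625) or E0 replicate c of 10 d (-0.94, adjusted p = 0.077), and KNAT1 (-1.07, adjusted p = 0.126) was called lower without E0 replicate a of 10 d (-1.73, adjusted p = 0.0251). On ET, 4 members rose and 0 fell, against 12% and 8.53% of all genes. They were STM (2.05, SE 0.38, adjusted p = 0.00134), CUC1 (2.64, SE 0.28, adjusted p = 1.47e-05), CUC3 (0.84, SE 0.25, adjusted p = 0.0257) and CLV1 (0.79, SE 0.19, adjusted p = 0.00806). Without ET replicate c of 5 d the STM value was 2.69, and the CUC3 call was lost without ET replicates a or c of 5 d or b or c of 10 d (adjusted p = 0.0647 to 0.0811). On EA, STM (1.37, SE 0.37, adjusted p = 0.0205) and CUC2 (1.80, SE 0.38, adjusted p = 0.00515) rose and CUC3 fell (by 1.11, SE 0.25, adjusted p = 0.00643), 2 and 1 members against 7.85% and 5.2% of all genes. The STM call on EA was lost without any one of the 5 d libraries (adjusted p = 0.0544 to 0.0743) and without EA replicate c of 10 d (0.95, adjusted p = 0.118). For CLV3 on ET, both groups were at or under the floor and no fold is given.

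Testing the change of the fold itself, the ET value against E0 was larger at 10 d than at 5 d for 5 members, STM, KNAT2, CUC1, CUC2 and CUC3, where 14.3% of all genes differed in either direction. The differences ranged from 1.70 for KNAT2 (SE 0.41, adjusted p = 0.0104) to 3.18 for CUC1 (SE 0.40, adjusted p = 0.00013). For EA against E0, 4 members gained (STM, KNAT2, CUC2 and CLV3) and CLV1 lost (-1.33, SE 0.26, adjusted p = 0.00471), where 8.81% of all genes differed. With 1 library left out at a time, STM, KNAT2 and CLV3 kept these EA calls in only 4, 5 and 5 of 12 fits. CUC2 and CLV1 kept theirs in all 12. CUC2 had the largest called gain among the KNOX and CUC genes on EA (3.73, SE 0.58, adjusted p = 0.00114). For KNAT2 on EA the gain of 1.45 (SE 0.41, adjusted p = 0.0371) came with similar levels on EA at both times and lower levels on E0 at 10 d. KNAT6, called in all 4 comparisons, gave 0.64 (SE 0.29, adjusted p = 0.156) on ET and 0.82 (SE 0.29, adjusted p = 0.0937) on EA.

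**Figure D3:**
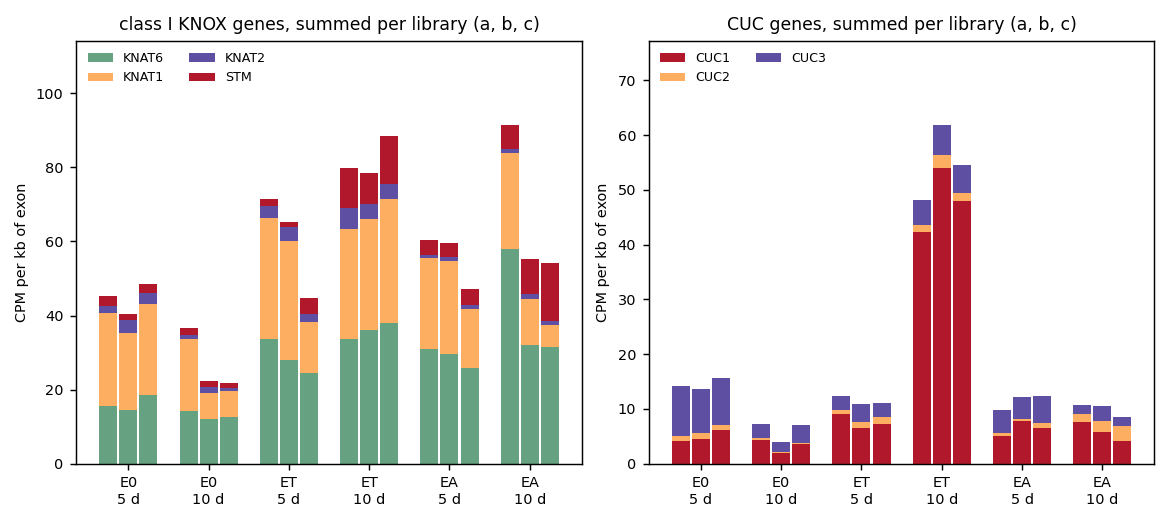
CPM per kb of exon (y axes) of the class I KNOX genes (left) and the CUC genes (right), stacked within each of the 18 libraries, which stand as a, b and c from left to right in each group. The CUC sum on ET at 10 d stands at 48.2 to 61.8 CPM per kb, of which CUC1 makes up 87.3% to 88.1%.

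Levels can be compared between genes after division by exon length. Summed over the 4 class I KNOX genes, libraries held 44.7 ± 4.07 CPM per kb (SD, n = 3) on E0 at 5 d and 26.9 ± 8.47 at 10 d, 60.4 ± 14.0 and 82.1 ± 5.38 on ET, and 55.7 ± 7.46 and 66.9 ± 21.1 on EA. KNAT6 and KNAT1 made up most of this sum in every group, and STM made up 4.92% ± 0.86 on E0 at 5 d, 12.8% ± 1.94 on ET at 10 d and 17.7% ± 11.1 on EA at 10 d. Within the CUC genes CUC3 led on E0 at 5 d alone, and CUC1 had the largest mean share in the other 5 groups, E0 at 10 d (52.9% ± 6.10, against 43.6% ± 6.71 for CUC3) among them. On E0 at 5 d CUC3 held 59.5% ± 4.54 and CUC1 34.3% ± 5.24 of the sum of 14.4 ± 1.04 CPM per kb. On ET at 10 d CUC1 held 87.7% ± 0.404 and CUC3 9.13% ± 0.446 of 54.8 ± 6.81 CPM per kb. EA at 10 d kept a low sum of 9.92 ± 1.27 CPM per kb but had the largest share of CUC2, 21.5% ± 10.5, against 3.18% ± 0.76 on ET at 10 d and 3.56% ± 0.674 on E0 at 10 d.

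The order of the 9 genes per kb differed between groups. On E0 at 5 d it was KNAT1 (23.5 CPM per kb), KNAT6, CUC3, CUC1, CLV1, KNAT2, STM, CUC2 and CLV3 (0.764), where CUC1 and CLV1, KNAT2 and STM, and CUC2 and CLV3 overlapped as neighbours. On ET at 10 d CUC1 was first (48.1 CPM per kb), before KNAT6 (35.9), KNAT1 (31.0) and STM (10.6), each apart from the next, while CUC3 and KNAT2, and CLV1 and CUC2, overlapped and CLV3 was last (0.0145). On EA at 10 d KNAT6 led (40.5 CPM per kb), apart from KNAT1 (14.8), while KNAT1 overlapped STM (10.5), STM overlapped CUC1 (5.86), and CUC1 lay apart from CLV1 (2.52). CLV1 came next after KNAT6 and KNAT1 on E0 at 10 d (7.80 CPM per kb), overlapping KNAT1, and below STM, CUC3 and KNAT2 on ET at both times (1.10 and 1.92). Exon length here is the union of all annotated exons. For CLV3 this is 1 stretch of 820 bases over the whole gene, and a shorter length would raise its level per kb.

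Within groups STM and KNAT1 ran in opposite directions on EA at 10 d and, for replicate c against a and b, on ET at 5 d. Each of these groups holds a library rich in identifiers without a locus code. Elsewhere they did not: replicate a was highest in both genes on E0 at 5 d and 10 d, and replicate c in both on ET at 10 d. Across EA at 10 d, replicates a, b and c had 10.7, 16.0 and 26.9 CPM of STM but 52.1, 25.3 and 12.3 CPM of KNAT1, and in ET replicate c at 5 d STM was highest and KNAT1 lowest of its group. CUC2 followed STM across EA at 10 d, and KNAT6 was highest in replicate a, as KNAT1 was. Over the 18 libraries, after subtraction of group means, Pearson's r of log2 CPM was -0.521 for STM with KNAT1, 0.791 for KNAT1 with KNAT6 and 0.662 for STM with CLV1. They are picked from all pairs of members, whose r ranged from -0.53 for CUC3 with CLV3 to 0.791. These values describe 18 libraries that share depth and composition, and the 2 libraries rich in identifiers without a locus code are among those that spread most. With both left out, STM, KNAT6, CUC1, CUC2 and CLV1 at 10 d on EA kept their calls against E0, and KNAT1 on EA was called in neither fit.

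**Figure D4:**
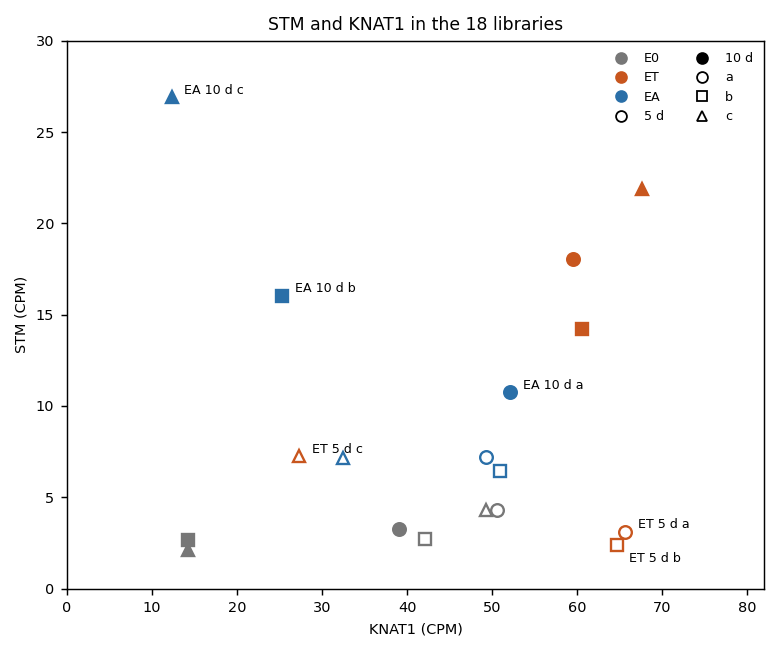
STM (y axis, CPM) against KNAT1 (x axis, CPM) in the 18 libraries, E0 in grey, ET in orange and EA in blue, open symbols for 5 d and filled for 10 d, with shapes for replicates a, b and c. EA at 10 d runs from 52.1 CPM of KNAT1 and 10.7 CPM of STM in replicate a to 12.3 and 26.9 CPM in replicate c, and ET replicate c at 5 d lies apart from replicates a and b.

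Among genes around the members, 18 were read as partners or counterparts, namely BELL and class II KNOX genes together with KNATM, which is neither. On ET, 5 were higher and 4 lower at 5 d and 6 and 6 at 10 d, and on EA, 0 and 5 at 5 d and 1 and 14 at 10 d. The shares of all genes called higher and lower, against which these and the following lists are read, were 23.8% and 21.5% on ET at 5 d, 18% and 20% on ET at 10 d, 19% and 20.8% on EA at 5 d, and 24.2% and 25% on EA at 10 d. The counts on ET at 5 d were close to these shares. Between ET and EA at 10 d, 15 of 18 were higher on ET and 0 lower, against 17.6% and 14.4% of all genes, with a median of 1.27 beside -0.04 for all genes. BLH9 (PENNYWISE), a partner of STM and KNAT1 in the meristem, stood at 3.26 ± 0.50 CPM on E0, 26.3 ± 4.5 on ET and 4.33 ± 0.43 on EA at 10 d (ET against E0 3.01, SE 0.24, adjusted p = 2.01e-07). ATH1, another partner of STM, was higher on ET (0.95, SE 0.21, adjusted p = 0.00179) and lower on EA (-0.58, SE 0.21, adjusted p = 0.0301) at 10 d. Both partners differed between ET and EA at 10 d (2.60 for BLH9 and 1.53 for ATH1, adjusted p = 6.3e-07 and 4.64e-05), while the difference in STM was 0.02 (SE 0.36). KNAT7, a class II gene of secondary walls, had the largest called fall in all 4 comparisons with E0 among genes of the list at 1 CPM or more on E0, from -1.63 on ET at 10 d to -2.86 on EA at 5 d. KNAT4 rose on ET at 5 d (1.53, SE 0.23, adjusted p = 6.14e-05) and BLH11 on EA at 10 d (1.29, SE 0.43, adjusted p = 0.0198).

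Among 11 genes that repress class I KNOX genes or pattern lateral organs, 5 were higher and 0 lower on ET at 5 d, 3 and 1 on ET at 10 d, 3 and 0 on EA at 5 d, and 1 and 6 on EA at 10 d. AS2, which represses KNAT1, KNAT2 and KNAT6 in leaves together with AS1, was higher on EA at 5 d (1.62, SE 0.26, adjusted p = 0.000115) and 10 d (1.91, SE 0.26, adjusted p = 1.65e-05), and lower on ET than on EA at 10 d (-1.67, SE 0.26, adjusted p = 0.000149). AS1 was higher on ET at 10 d (1.16, SE 0.33, adjusted p = 0.0103). BOP1 and BOP2, regulators of organ bases, gave the largest rises on ET, BOP1 at 5 d (2.64, SE 0.57, adjusted p = 0.00125) and BOP2 at 10 d (1.70, SE 0.19, adjusted p = 4.42e-06). The TCP genes of leaf growth gave the largest falls, TCP10 on ET at 10 d (-0.92, SE 0.22, adjusted p = 0.00337) and TCP4 on EA at 10 d (-1.45, SE 0.21, adjusted p = 3.3e-05).

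Of 13 further boundary genes, 9 were tested. On ET, 1 was higher and 2 lower at 5 d and 3 and 1 at 10 d, and on EA, 2 and 5 at 5 d and 3 and 5 at 10 d. LAS, which starts axillary meristems, was lower on ET (-1.08, SE 0.37, adjusted p = 0.0256) and higher on EA (1.76, SE 0.33, adjusted p = 0.000447) at 5 d. LSH4, a boundary gene that CUC1 activates, stood at 4.57 ± 0.64 CPM on E0, 17.6 ± 5.5 on ET and 1.11 ± 0.90 on EA at 10 d. It was higher on ET (1.95, SE 0.42, adjusted p = 0.00158) and lower on EA (-2.03, SE 0.44, adjusted p = 0.00108), whereas CUC1 was called higher on both at that time. On EA the CUC1 libraries overlapped E0, and that call was lost without E0 replicate b or EA replicate a. Its relative LSH3 was higher on EA at 10 d (1.59, SE 0.23, adjusted p = 2.67e-05), where CUC1 stood at 5.08 to 9.42 CPM. LOB was at 0 counts in all EA libraries of 10 d and at 1.21 ± 0.16 CPM on E0. Among the RAX genes of axillary meristems, MYB37 rose and MYB38 fell on ET at 5 d (1.63 and -0.71, adjusted p = 0.00103 and 0.0409), and MYB84 fell on ET at 10 d (-2.36, SE 0.39, adjusted p = 0.000179) and on EA at 5 d (-3.09, SE 0.41, adjusted p = 1.59e-05). MIR164A, MIR164B and MIR164C were at 0 CPM in all groups and were not tested.

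The 4 other genes with a miR164 site of at most 3 mismatches were NAC1, NAC080, NAC100 and AT3G12977, taken by sequence after values of the members were seen. Their sites have these bases, with mismatches to the complement of miR164a in lower case.
NAC1 (chr1:20947142-20947162, minus strand): aGCACGUaCCCUGCUUCUCCA
NAC080 (chr5:2436958-2436978, plus strand): UuuACGUGCCCUGCUUCUCCA
NAC100 (chr5:24701687-24701707, minus strand): UcuACGUGCCCUGCUUCUCCA
In these 3 sites and in that of AT3G12977 every base that faces the seed pairs by G-C or A-U. In CUC1 and CUC2 this holds except at base 8 of miR164a, where a G-U pair is possible. All 4 were called lower in all 4 comparisons with E0, whereas CUC1 and CUC2 were called higher in both at 10 d. For CUC1 on EA that call was lost without E0 replicate b or EA replicate a. NAC1, known from lateral root formation, stood at 19.5 ± 2.8 CPM on E0, 1.40 ± 0.18 on ET and 0.744 ± 0.565 on EA at 10 d (ET against E0 -3.78, SE 0.41, adjusted p = 3.46e-06). NAC080 stood at 12.7 ± 1.9, 0.998 ± 0.330 and 0.909 ± 0.078 CPM in the same groups (-3.66, SE 0.33, adjusted p = 5.61e-07). Genes with such a site therefore did not move together at 10 d, and mature miR164 was not measured.

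Of 18 genes of the CLAVATA and WUSCHEL pathway beside CLV1 and CLV3, 17 were tested. On ET, 6 were higher and 3 lower at 5 d and 10 and 1 at 10 d, and on EA, 12 and 3 at 5 d and 10 and 1 at 10 d, with medians of 0.38, 0.46, 0.74 and 0.63. On ET at 5 d these counts were nearest to the shares of all genes (23.8% higher and 21.5% lower), while on ET at 10 d and on EA at both times 10, 12 and 10 of the 17 were higher, against 18%, 19% and 24.2% of all genes. WUS was near the floor on E0, at 0.0203 ± 0.018 CPM at 10 d, and stood at 1.18 ± 0.43 CPM on ET and 0.171 ± 0.051 CPM on EA, called higher on both (adjusted p = 7.81e-05 and 0.0184) and higher on ET than on EA (2.70, SE 0.61, adjusted p = 0.00297). CLV3, which WUS protein activates in stem cells, was at 0 to 0.0356 CPM in those ET libraries. CRN, the membrane partner of the receptor CLV2, was higher in all 4 comparisons, most on EA at 5 d (2.38, SE 0.21, adjusted p = 1.91e-07), and stood at 56.0 ± 3.8 CPM on EA against 12.2 ± 1.6 on E0 at 10 d. BAM1, a receptor kinase related to CLV1, was higher on EA at 5 d (1.08, SE 0.20, adjusted p = 0.000422) and 10 d (1.29, SE 0.20, adjusted p = 6.55e-05) and on ET at 10 d (0.80, SE 0.20, adjusted p = 0.00448). CLV1 was lower in both comparisons at 10 d, while at 5 d it was lower on ET, where BAM1 stood at 0.29 (SE 0.20, adjusted p = 0.254), and not called on EA. CLV2 itself rose by less, 0.59 on ET at 10 d (SE 0.17, adjusted p = 0.0134) and 0.47 on EA at 5 d (SE 0.18, adjusted p = 0.0436). PLL1, a phosphatase of the pathway, rose on ET at 5 d (1.67, SE 0.48, adjusted p = 0.00884). HAM3, a GRAS partner of WUS, fell in all 4 comparisons, from -1.30 on ET at 10 d (adjusted p = 0.0163) to -3.23 on EA at 5 d (adjusted p = 1.37e-05).

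**Figure D5:**
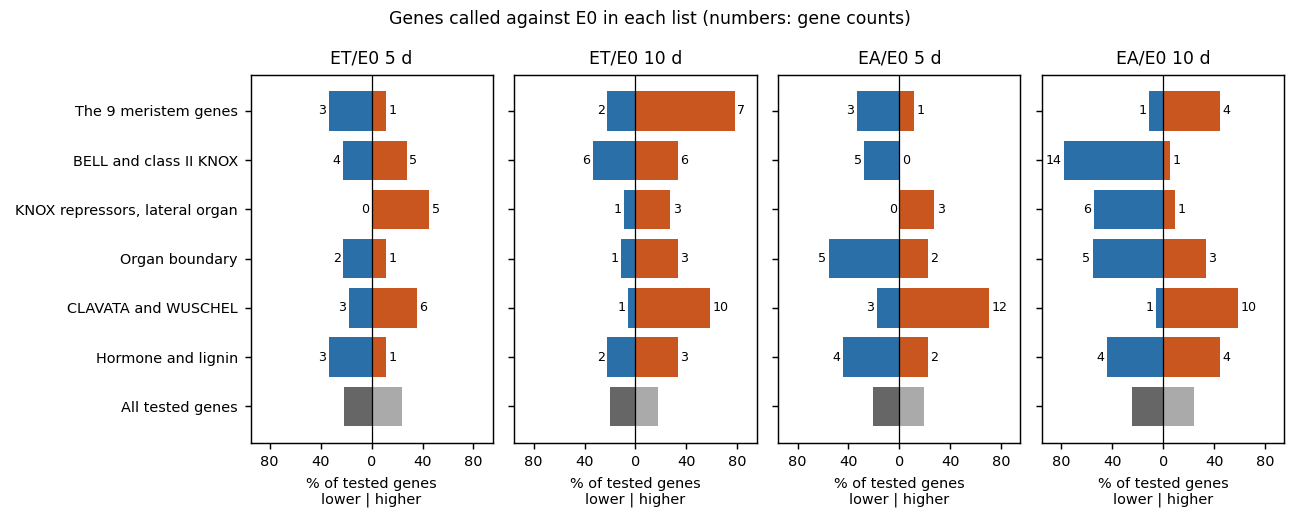
Share of the tested genes of each list called higher (to the right) and lower (to the left) than on E0, in percent, for both media and days, with the number of genes beside each bar and all 23539 tested genes in grey. At 10 d on ET 7 of the 9 meristem genes are higher and 2 lower, and on EA 14 of the 18 genes of the BELL and class II KNOX list, which includes KNATM, are lower.

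Of 9 hormone and lignin genes known to act downstream of class I KNOX proteins, 1 was higher and 3 lower on ET at 5 d, 3 and 2 on ET at 10 d, 2 and 4 on EA at 5 d, and 4 and 4 on EA at 10 d. Of all genes, 18% to 24.2% were higher and 20% to 25% lower over the 4 comparisons. The gibberellin-inactivating genes gave the largest rises, GA2OX2 at 5 d on ET (2.65, SE 0.42, adjusted p = 8.45e-05) and EA (2.64, SE 0.42, adjusted p = 9.24e-05), and GA2OX4 at 10 d on ET (2.55, SE 0.50, adjusted p = 0.000723) and EA (3.58, SE 0.50, adjusted p = 2.18e-05). IPT7, a cytokinin synthesis gene that STM raises, was lower at 10 d on ET (-2.70, SE 0.48, adjusted p = 0.000321) and EA (adjusted p = 9.38e-07), with 0.0624 ± 0.038 CPM on EA near the floor against 2.66 ± 0.77 CPM on E0, while STM was higher on both media. LOG7, which releases active cytokinin, was lower at 5 d on ET (-0.82, SE 0.23, adjusted p = 0.00887) and EA (-2.05, SE 0.24, adjusted p = 3.82e-06).

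Other tested genes were ranked by the Pearson correlation of their log2 CPM with each member over the 18 libraries, and the 2 nearest are named. These are KT2 (r = 0.905) and AT3G27025 (r = 0.912) for STM, AT2G43800 (r = 0.91) and LARP1b (r = 0.9) for KNAT1, AT5G15190 (r = 0.914) and PRS (r = 0.896) for KNAT2, and MAP65-2 (r = 0.952) and AIR9 (r = 0.949) for KNAT6. For the CUC genes they are AT1G72110 (r = 0.939) and AT5G20810 (r = 0.914) for CUC1, AT3G05545 (r = 0.852) and GA3 (r = 0.844) for CUC2, and BZIP27 (r = 0.943) and AT5G51270 (r = 0.939) for CUC3. CAT4 (r = 0.954) and RIN2 (r = 0.946) were nearest to CLV1, and AT1G30550 (r = 0.937) and PIP5K3 (r = 0.935) to CLV3. No member was among the 2 nearest genes of another member, and these correlations describe libraries that share their group means.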

How the data were processed

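RNA-seq libraries (ScriptSeq, with ribosomal RNA depleted) of 18 samples in 6 groups of 3 were analysed. The authors demultiplexed the reads with bcl2fastq, checked them with FastQC and MultiQC, trimmed them with Sickle, removed ribosomal reads with SortMeRNA and aligned them to TAIR10 with STAR. The deposited values are raw counts, that is the number of reads with a unique alignment in each gene. The strand setting and the annotation release are not given in the sources used here, so positions and sequences come from the TAIR10.1 annotation of RefSeq. Unique alignment leaves out reads shared by near-identical genes, which did not concern the 9 genes.

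Analyses were run in R 4.3.3. Genes that passed edgeR's filterByExpr (23539 of 34218) were scaled by TMM and fitted in 1 quasi-likelihood model over the 18 libraries with edgeR 4.0.16 (limma 3.58.1), and Benjamini-Hochberg adjustment covered all tested genes in each of 11 contrasts. The threshold for a call was an adjusted p of 0.05, and each SE is the log2 fold change divided by the square root of F. CPM refers to library sizes after TMM scaling, and a prior count of 2 was added for log2 CPM. CLV3 was also compared by pooled counts with exact 95% intervals and a floor of 3 counts. Depth of 9098758 to 58364735 counts per library sets this floor at 0.0487 to 0.329 CPM, and floors and intervals cover counting error only, since no molecular identifiers were used. Each p-value tests a difference of group means, with 3 biological replicates per group. The spread it is set against was estimated over all 6 groups and moderated across genes, so it is not that of the compared groups alone.

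The members and gene lists were chosen with earlier results of these data known. Named genes are the members, 9 fixed partners and regulators with the MIR164 genes, the called gene with the largest change in each direction of each pathway list against E0 (at least 1 CPM in the higher group), and the 2 genes nearest to each member. Alternatives were DESeq2's size factors, library totals, no filter, DESeq2's Wald test (1.42.0), a further limit of 1 on the size of the log2 fold change, fits of the compared libraries alone, a block for the replicate letter, and each library left out. Leaving out the 2 libraries rich in identifiers without a locus code together was added after seeing the data. The procedure was tested on simulated data.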

Additional observations from a re-analysis of the deposited data

Results flagged for a closer look

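The fold change against E0 differed between 5 d and 10 d for 10 pairs of member and medium, by edgeR's test of the difference itself over all 18 libraries (Benjamini-Hochberg adjustment over 23539 genes, n = 3 per group). On ET the log2 fold change was larger at 10 d by 2.57 for STM (adjusted p = 0.00481), 1.70 for KNAT2 (adjusted p = 0.0104), 3.18 for CUC1 (adjusted p = 0.00013), 2.82 for CUC2 (adjusted p = 0.00422) and 2.53 for CUC3 (adjusted p = 0.000291). For STM it was 3.21 without ET replicate c of 5 d. On EA it was larger at 10 d by 1.89 for STM (adjusted p = 0.0367), 1.45 for KNAT2 (adjusted p = 0.0371), 3.73 for CUC2 (adjusted p = 0.00114) and 3.84 for CLV3 (adjusted p = 0.0317), and it fell by 1.33 for CLV1 (adjusted p = 0.00471). The EA values of STM, KNAT2 and CLV3 lost their call without single libraries of E0 or EA (8, 7 and 7 of 12), and the CLV3 value compares 4 counts on EA at 5 d with 21 at 10 d. No group held enough libraries for a test of single outlying samples. Each difference between days is the change on the medium less the change on E0. On E0, CUC2, CUC3 and KNAT2 fell from 5 d to 10 d (by 1.94, 1.69 and 1.14, adjusted p = 0.00572, 0.000283 and 0.0134). Over those days CUC2 (0.88, adjusted p = 0.117) and KNAT2 (0.57, adjusted p = 0.166) were not called on ET, and CUC3 rose there (0.84, adjusted p = 0.0257). On EA, CUC2 rose (1.80, adjusted p = 0.00515) and KNAT2 was not called (0.31, adjusted p = 0.526).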

How the results depend on the processing

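Of 49 called values among the 99 of the members, none changed sign under any alternative, and 39 kept their call whichever single library was left out. Library totals moved the median log2 fold change of all genes to 0.24 and 0.23 for EA against E0 at 5 d and 10 d and to -0.19 and -0.22 for ET against EA, so that values in these comparisons shift together under that scaling. The number of members called moved by over 1.5 times in few cases. With a further limit of 1 on the size of the log2 fold change it was 2 for EA against E0 at 5 d and 2 for 10 d against 5 d on ET. With library totals it was 4 for ET against EA at 5 d, and in fits of the compared libraries alone 2 for the days on ET and 1 for the days on EA. For the change of the EA effect between days it was 2 to 5 with each library left out. With no filter or DESeq2's Wald test only CLV3 lost calls (ET against EA at 10 d and, with no filter, the change of the EA effect). In fits of the compared libraries alone, 91 of 99 values could be had, since CLV3 passed the filter there in few comparisons.

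Signs turned only for values called in neither fit. With both libraries rich in identifiers without a locus code left out these were STM (-0.44) and CUC2 (-0.13) for ET against E0 at 5 d, KNAT2 (0.021) for EA against E0 at 10 d, CUC2 (0.09) for ET against EA at 10 d, KNAT1 (-0.057) and CUC1 (0.057) between days on ET and EA, and CLV1 (0.042) for the change of the ET effect. With library totals they were KNAT1 for EA at 5 d (0.11), KNAT2 for EA at 10 d (0.02) and STM for ET against EA at 10 d (-0.14). KNAT6 for ET against EA at 5 d, 0.001, became -0.23 with library totals, -0.024 with DESeq2's size factors, -0.023 with its Wald test, and -0.027 in a fit of the compared libraries alone. With each library left out, uncalled values ranged for ET against E0 at 5 d from -0.44 to 0.44 for STM, -0.052 to 0.46 for KNAT1, -0.071 to 0.31 for KNAT2 and -0.13 to 0.32 for CUC2. For EA against E0 the ranges were -0.21 to 0.084 for KNAT1 at 5 d, and -0.26 to 1.08 for KNAT1, -0.33 to 0.10 for KNAT2 and -0.76 to 0.029 for CLV3 at 10 d. For ET against EA they were -0.13 to 0.11 for KNAT6 at 5 d, and -0.25 to 0.43 for STM, -0.33 to 0.18 for KNAT6 and -0.54 to 0.089 for CUC2 at 10 d. Between days they were -0.057 to 0.46 for KNAT1 on ET, -0.38 to 0.059 for CUC1 on EA, -0.26 to 0.042 for CLV1 in the ET effect and -0.16 to 1.17 for KNAT1 in the EA effect. The causes were not tested.

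The replicate letters were not treated as pairs. Deviations from group means correlated with a median r of 0.0185 (-0.302 to 0.728, above 0.1 in 15 of 45 pairs) between libraries of the same letter. Between libraries of different letters the median was -0.00376 (-0.563 to 0.236, above 0.1 in 18 of 90 pairs). In 20 of 45 comparisons of a library with another group the same letter correlated best. Same-letter values thus reached higher, and whether some groups share a letter effect was not tested. With a replicate block the value of KNAT6 for ET against EA at 5 d was -0.008, and KNAT1 was called in addition for ET against EA at 10 d (1.28, adjusted p = 0.0161) and for the days on E0 (-1.22, adjusted p = 0.0347), with no call lost. Depth limits CLV3, with 0 to 17 counts per library, and the least abundant CUC2 libraries.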
